A study of Mus musculus with 6 samples.

Results

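Integrins are transmembrane receptors, each an alpha and a beta subunit, that hold cells on the extracellular matrix. Inside the cell, talins and kindlins bind the beta tail and switch the receptor on, and a layer of adaptor proteins (the focal adhesion) links it to actin filaments and to signalling enzymes. Hepatocytes put into culture attach and spread through integrins, and these cells were plated on collagen. The 36 listed genes, 20 integrin subunit genes and 16 adaptor genes, were chosen with earlier results of these data known. Counts among them, set beside the shares over all probe sets, are therefore a description. Of the 36 genes 35 were found among the 21115 probe sets of the array through the gene number in the probe set name. The other listed gene, an adaptor, had no paired probe set in the annotation used and was not analysed here.

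Primary hepatocytes were isolated from 3 C57BL/6 mice, and the series compares 3 control samples with 3 samples given recombinant BMP2 at 50 ng/ml for 24 hours. BMP2, a growth factor of the TGF-beta superfamily, acts on cells by way of SMAD proteins, and the title of the series places it in the control of iron by liver vessels. All 6 cultures were attached in medium with serum and dexamethasone and kept without serum afterwards, and dexamethasone was left out at the last medium change. The labels name the mice by strain only, without genotype, age or sex, and do not say whether the control medium held the acid in which BMP2 was dissolved.

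Values are log2 expression, 1 per probe set and sample. The highest was 14.02, and sample medians lay between 6.80 and 6.81. Levels under 7 lay near the floor of the array, where changes are compressed, and a level of one gene is not set against that of another. As a check of the treatment, the BMP target gene Id1 rose by 4.29 ± 0.09 (difference ± SE; limma adjusted p = 0.00094). Of the 8 measured hepatocyte markers 6 had a mean of at least 7, among them Alb, Apoa1, Ttr and Hnf4a, while Cps1 and Asgr1 lay under it. RNA came from whole cultures, so fewer cells of a type and less RNA per cell cannot be told apart.

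Of the 35 measured genes 4 fell with BMP2 and none rose. They were Actn1, which encodes an actin cross-linker, Zyx, which encodes zyxin, Ilk, the integrin-linked kinase gene, and Itgb1, the beta subunit shared by most matrix integrins. Adaptors made up 3 of the 4 calls (3 of 15 measured adaptors) and integrin subunits 1 (1 of 20). Among genes with a mean level of at least 7 the calls were 3 of 13 adaptors and 1 of 7 integrin subunits. The decreases were small, between 7.09% for Itgb1 and 21.9% for Actn1 on the linear scale. The test was limma on all probe sets with Benjamini-Hochberg adjustment, two-sided, at an adjusted p of 0.05. Over all probe sets 0.573% were called lower and 0.616% higher. At an unadjusted p under 0.05, 12 of the 35 were lower and 1 was higher, against 6.10% and 6.42% of all probe sets.

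Of the 35 genes 20 had a mean level of at least 7, and these held all 4 calls. Among all 8879 probe sets at that level 2.52% were called, and 1.21% were called lower. With the replicate number as a block, which compares the control and BMP2 samples of one replicate number, 8 of the 35 were lower and none was higher, against 1.64% lower and 1.68% higher of all probe sets. The 8 held the first 4 and added Itga3, Itga2, Pxn and Tns1. Actn1 passed in all 6 fits with 1 sample left out (highest adjusted p 0.039), while Zyx, Ilk and Itgb1 passed in 0 of 6. Between 1 and 3 members were lower in these fits.

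**Figure D1:**
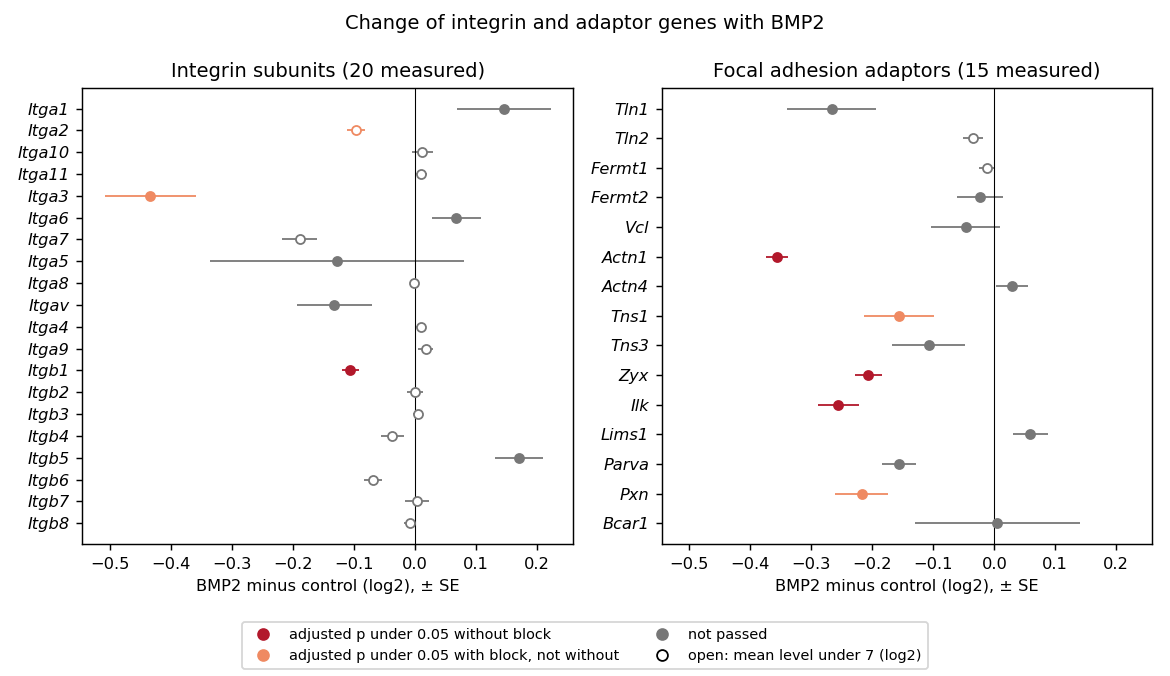
Difference between BMP2 and control samples (log2, horizontal axis) with its SE for the 20 measured integrin subunit genes (left) and 15 adaptor genes (right); open circles are genes with a mean level under 7. Actn1, Zyx, Ilk and Itgb1 are the 4 genes that passed without the block, and Itga3, Itga2, Pxn and Tns1 were added by the block at otherwise equal settings.

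The median difference of the 13 adaptor genes at a mean of at least 7 was -0.16 and that of the 7 integrin subunits at this level was -0.11, against 0.008 for all probe sets at this level. Over all measured members, bright or dim, the medians were -0.11 for adaptors and -0.0003 for integrin subunits, against 0.0007 over all probe sets. The difference between both classes was not tested, and with an intensity trend 4 integrin subunits and 2 adaptors passed. The adaptor median was -0.11, -0.10 and -0.04 in the pairs of replicates 1, 2 and 3. Of the 20 bright members the groups did not overlap in 8 with BMP2 lower and in 1 with BMP2 higher. Of all probe sets at this level 11.6% were separated downwards and 13.9% upwards.

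The actin linkers come first. Actn1, alpha-actinin 1, stood at 12.64, 12.60 and 12.63 in control replicates 1, 2 and 3 and at 12.28, 12.24 and 12.28 in BMP2 replicates 1, 2 and 3. All BMP2 samples lay below all controls, and the 3 pairs differed by -0.36, -0.36 and -0.35. Actn1 fell by 0.36 on the log2 scale (SE 0.02, limma adjusted p = 0.0049; 0.010 with the block). Without both samples of replicate number 3 and without a block its adjusted p was 0.057.

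Its paralogue Actn4, alpha-actinin 4, stood at 13.09, 13.04 and 13.07 in control and at 13.08, 13.06 and 13.14 in BMP2 samples. The groups overlapped. The difference was 0.03 with a 95% confidence interval from -0.04 to 0.09 (limma adjusted p = 0.81), so a fall of the size seen in Actn1 lay outside the interval of Actn4.

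Zyx, a LIM protein that moves to adhesions under tension, stood at 11.29, 11.35 and 11.30 in control and at 11.13, 11.11 and 11.07 in BMP2 samples. The groups did not overlap. Zyx fell by 0.21 on the log2 scale (SE 0.02, limma adjusted p = 0.033; 0.042 with the block). Its adjusted p was 0.0502 with an intensity trend in the variance prior, and between 0.057 and 0.13 with 1 sample left out.

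Vcl, vinculin, which strengthens the bond between talin and actin, ranged from 11.03 to 11.23 in control and from 11.05 to 11.13 in BMP2 samples. The groups overlapped, with a difference of -0.05 (95% confidence interval -0.19 to 0.10, limma adjusted p = 0.89). The tensins Tns1 and Tns3 couple the beta tail to actin. Tns1 differed by -0.19, -0.14 and -0.13 in the 3 pairs and passed with the block (limma adjusted p = 0.045; 0.37 without). Its groups overlapped, because both samples of replicate 3 (8.73 in control and 8.60 with BMP2) lay above the other samples of their group. Tns3 differed by -0.11, -0.27 and 0.06 in the pairs, in both directions.

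The complex of ILK with the PINCH and parvin proteins sits on the beta tail and anchors actin. Ilk stood at 11.41, 11.51 and 11.40 in control and at 11.16, 11.20 and 11.21 in BMP2 samples. The groups did not overlap. Ilk fell by 0.26 on the log2 scale (SE 0.03, limma adjusted p = 0.049; 0.048 with the block). It did not pass after median centring of the arrays (adjusted p = 0.059) or with any 1 sample left out (0.065 to 0.17).

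The partners of Ilk among the members, Parva and Lims1, gave no call without or with the block. Lims2, a PINCH gene outside the members, is given below. Parva, alpha-parvin, stood at 11.41, 11.37 and 11.47 in control and at 11.28, 11.26 and 11.24 in BMP2 samples, without overlap (difference -0.16, limma adjusted p = 0.095; 0.12 with the block). Lims1, the PINCH adaptor, stood at 10.86, 10.83 and 10.87 in control and at 10.97, 10.86 and 10.91 in BMP2 samples. Its groups overlapped, and its difference of 0.06 had a 95% confidence interval from -0.01 to 0.13 (adjusted p = 0.53).

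Tln1, talin 1, the activator that pulls on the beta tail, stood at 10.65, 10.58 and 10.61 in control and at 10.24, 10.29 and 10.50 in BMP2 samples. All BMP2 values were lower, with BMP2 replicate 3 nearest to the controls, and the difference of -0.27 ± 0.07 did not pass (limma adjusted p = 0.23; 0.18 with the block). Without BMP2 replicate 3 it was -0.35 and passed (limma adjusted p = 0.032), in a fit that drops the BMP2 sample nearest to the controls. In every other fit with 1 sample left out Actn1 was the only adaptor that passed. Fermt2, kindlin-2, the co-activator of epithelial and mesenchymal cells, differed by -0.02 (95% confidence interval -0.12 to 0.07). Tln2 and Fermt1, the other talin and an epidermal kindlin, lay between 6.51 and 6.83 in all samples, near the floor.

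Pxn, paxillin, a scaffold of signalling enzymes, stood at 11.28, 11.34 and 11.37 in control and at 11.03, 11.13 and 11.17 in BMP2 samples. The groups did not overlap. The difference of -0.22 ± 0.04 passed with the block (limma adjusted p = 0.028; 0.12 without). Bcar1, a docking protein phosphorylated by Src, stood at 9.76, 9.80 and 10.12 in control and at 9.72, 9.89 and 10.08 in BMP2 samples. Both samples of replicate 3 were high, and the groups overlapped almost fully (difference 0.01, 95% confidence interval -0.34 to 0.35).

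**Figure D2:**
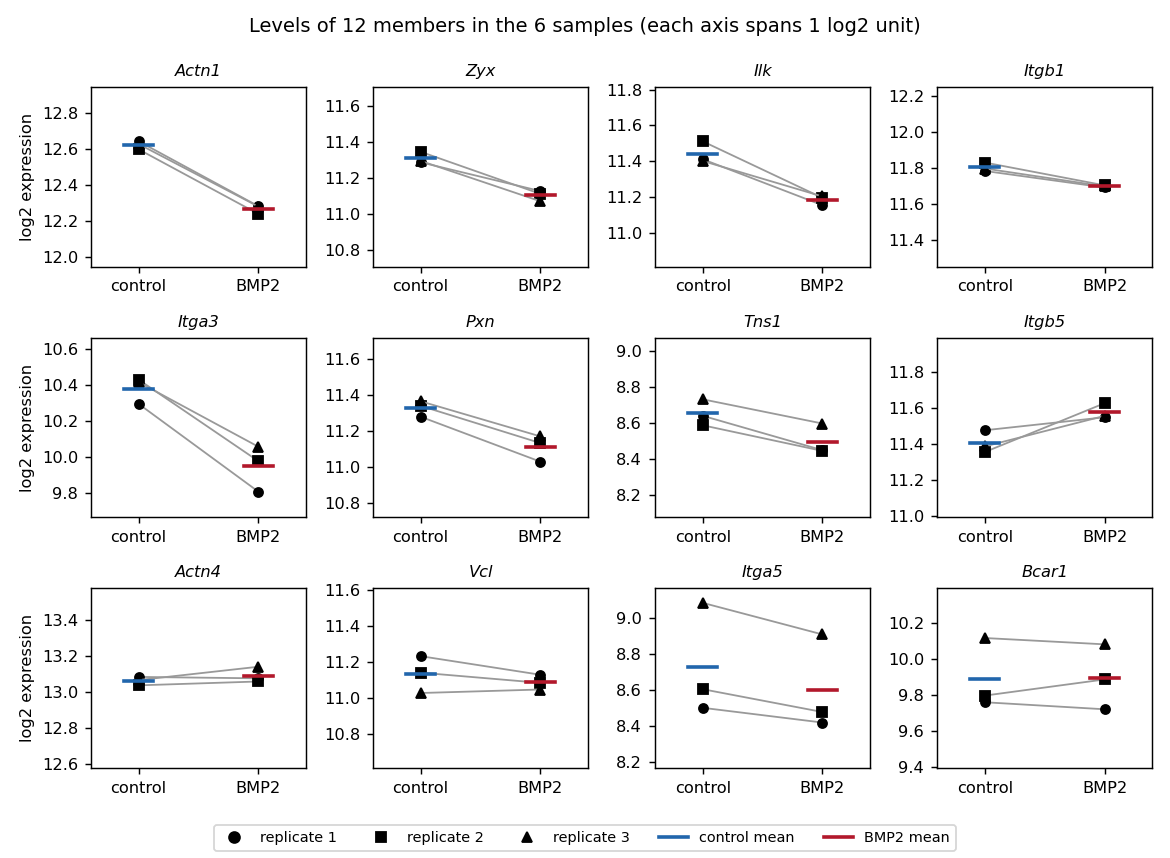
Levels (log2 expression, vertical axis) of 12 members in control and BMP2 samples; symbols mark the replicate, grey lines join samples of the same number, bars are group means, and each axis spans 1 log2 unit. Actn1, Zyx, Ilk, Itgb1, Itga3 and Pxn are lower in every BMP2 sample than in every control, while Itga5 and Bcar1 are set apart by replicate 3 in both groups.

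Among the beta subunits Itgb1 stood at 11.78, 11.83 and 11.80 in control and at 11.69, 11.70 and 11.70 in BMP2 samples. The groups did not overlap. Itgb1 fell by 0.11 on the log2 scale (SE 0.01, limma adjusted p = 0.048, also with the block). The SD was 0.02 in control and 0.01 in BMP2 samples. The adjusted p was 0.21 with an intensity trend, 0.10 over probe sets of at least 7 alone, 0.072 after median centring and 0.051 after renewed quantile normalization. With 1 sample left out it was between 0.086 and 0.17.

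Itgb5, the beta partner of alpha-v in the vitronectin receptor, was the only bright member whose groups were separated upwards. It stood at 11.48, 11.36 and 11.39 in control and at 11.55, 11.63 and 11.56 in BMP2 samples. The difference of 0.17 ± 0.04 (95% confidence interval 0.07 to 0.27) did not pass (limma adjusted p = 0.15; 0.19 with the block). The other 6 beta subunits lay between 6.59 and 6.88 in all samples. They are Itgb2 and Itgb7 of leukocytes, Itgb3 of platelets and vessels, Itgb4 of hemidesmosomes, and Itgb6 and Itgb8, which help to activate TGF-beta. Of these Itgb6 was separated downwards (6.66 to 6.68 in control, 6.59 to 6.63 with BMP2; limma adjusted p = 0.13).

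The alpha subunits decide which matrix protein is bound. Of the 3 laminin-binding subunits Itga3 stood at 10.29, 10.43 and 10.42 in control and at 9.81, 9.98 and 10.06 in BMP2 samples. The groups did not overlap, and the difference of -0.43 ± 0.08 was the largest among the 35 members. It passed with the block (limma adjusted p = 0.029) and not without it (0.085), although it also passed without the block when only probe sets of at least 7 were tested (0.023) and with an intensity trend (0.032). Itga6 ranged from 8.02 to 8.14 in control and from 8.11 to 8.20 in BMP2 samples, with overlap (difference 0.07, 95% confidence interval -0.03 to 0.17). Itga7, the muscle laminin receptor subunit, lay near the floor at 6.93 to 7.02 in control and 6.76 to 6.81 with BMP2, and its difference of -0.19 did not pass (limma adjusted p = 0.061; 0.085 with the block).

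Of the 4 collagen-binding subunits Itga1 had a mean above 7. It stood at 7.35, 7.25 and 7.16 in control and at 7.51, 7.43 and 7.27 in BMP2 samples. Each pair was higher with BMP2 (0.15, 0.17 and 0.11) while the groups overlapped (limma adjusted p = 0.57; 0.053 with the block). Itga2 lay near the floor at 6.83 to 6.87 in control and 6.74 to 6.78 with BMP2, a difference of -0.10 that passed with the block (limma adjusted p = 0.047; 0.065 without), and without the block when an intensity trend was fitted (0.033). Itga10 and Itga11 lay between 6.66 and 6.82 in all samples.

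The RGD-binding subunits recognise fibronectin and vitronectin. Itgav stood at 11.26, 11.22 and 11.27 in control and at 11.05, 11.04 and 11.25 in BMP2 samples, so BMP2 replicate 3 lay among the controls (difference -0.13 ± 0.06, limma adjusted p = 0.50). Without that sample the difference was -0.20 and passed (limma adjusted p = 0.034), in a fit that drops the BMP2 value nearest to the controls. In every other fit with 1 sample left out 0 integrin subunits passed. Itga5, the fibronectin receptor subunit, stood at 8.50, 8.61 and 9.09 in control and at 8.42, 8.48 and 8.91 in BMP2 samples. Both samples of replicate 3 were high. Each pair was lower with BMP2 (-0.08, -0.13 and -0.18), with a limma adjusted p of 0.94 without and 0.099 with the block. Itga8 and the subunits Itga4 and Itga9 lay between 6.57 and 6.62 in all samples.

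The 15 members under a mean of 7 (13 integrin subunits and 2 adaptors) differed by -0.19 to 0.02. None passed without the block at these settings, while an intensity trend in the variance prior called Itga2, Itga7 and Itgb6 (limma adjusted p = 0.033, 0.015 and 0.049). Their values do not show that these genes were unchanged. The 6 leukocyte and platelet alpha subunits outside the list (such as Itgal, Itgam and Itga2b) lay between 6.53 and 6.88, and 0 passed in limma (0 at an unadjusted p under 0.05).

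**Figure D3:**
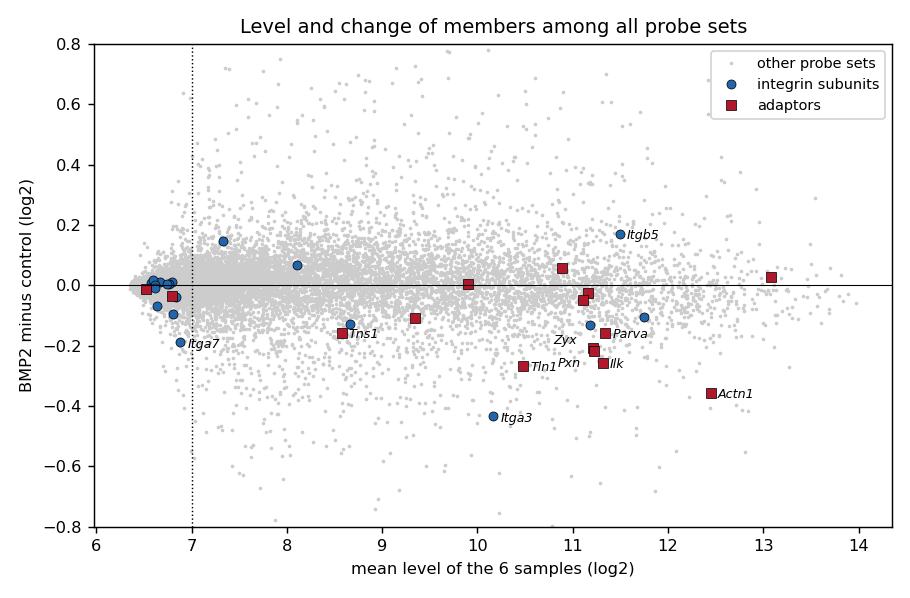
Mean level of the 6 samples (log2, horizontal axis) against the BMP2 minus control difference (log2, vertical axis) for all probe sets (grey; 78 beyond 0.8 are not drawn), integrin subunits (circles) and adaptors (squares); the dotted line is a level of 7. The dim integrin subunits crowd at the left near 0, and Actn1 (-0.36) and Itga3 (-0.43) lie lowest among the members.

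The spread between replicate numbers was set beside the BMP2 difference. The range of the 3 means per replicate number (control and BMP2 averaged) exceeded the BMP2 difference in 12 of 20 integrin subunits and 6 of 15 adaptors. Many of these integrin subunits lay near the floor with differences close to 0, and at a mean of at least 7 the counts were 3 of 7 and 5 of 13. The share over all probe sets was not computed. A range of 3 means and a difference of group means are unlike measures, so these counts do not show which effect was larger. The range was 0.54 for Itga5 and 0.36 for Bcar1, both high in replicate 3, against 0.04 for Actn1 and 0.03 for Itgb1. In the 3 pairs all differences had the same sign in 8 adaptors that were lower and 1 that was higher, and in 8 integrin subunits that were lower and 4 that were higher, against 17.6% lower and 19.1% higher of all probe sets. At a mean of at least 7 these were 7 and 1 of 13 adaptors and 4 and 3 of 7 integrin subunits, against 22.4% and 28.2%.

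The 250 bases before 1 annotated transcript start of each of the 4 called genes are shown, because they moved in the same direction and a reader may want to see what stands in front of them. They come from RefSeq (GRCm38.p6) and are written 5′ to 3′ in the direction of the gene. The starts used for Ilk and Itgb1 are the outermost of the gene. Other annotated transcripts of Actn1 and Zyx start 57 and 317 bases further upstream, so 57 bases of the Actn1 stretch and all 250 of the Zyx stretch lie inside the annotated gene. Capitals mark matches to 5 motifs searched on both strands. These are the BMP-type SMAD element GGCGCC, the SMAD box CAGAC, the AP-1 site TGANTCA, the TEAD site GGAATG and the CArG box bound by SRF. The Actn1 stretch (chr12:80260364-80260613, minus strand) and the Ilk stretch (chr7:105736340-105736589, plus strand) held none of the 5. The Zyx stretch (chr6:42349578-42349827, plus strand) held an AP-1 site and a SMAD box. The Itgb1 stretch (chr8:128685404-128685653, plus strand) held 3 SMAD boxes, 1 BMP-type element and 1 TEAD site.
Actn1: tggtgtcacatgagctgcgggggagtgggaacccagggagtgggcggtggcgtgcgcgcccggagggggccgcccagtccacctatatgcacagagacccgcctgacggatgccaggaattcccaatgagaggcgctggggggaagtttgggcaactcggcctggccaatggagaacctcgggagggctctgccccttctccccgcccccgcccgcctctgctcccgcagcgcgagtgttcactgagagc
Zyx: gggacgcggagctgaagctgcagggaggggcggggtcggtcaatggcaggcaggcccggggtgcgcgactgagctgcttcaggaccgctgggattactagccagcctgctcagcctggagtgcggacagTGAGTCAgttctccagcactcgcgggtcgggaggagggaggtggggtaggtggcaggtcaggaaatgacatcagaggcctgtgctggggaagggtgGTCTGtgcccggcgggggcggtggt
Ilk: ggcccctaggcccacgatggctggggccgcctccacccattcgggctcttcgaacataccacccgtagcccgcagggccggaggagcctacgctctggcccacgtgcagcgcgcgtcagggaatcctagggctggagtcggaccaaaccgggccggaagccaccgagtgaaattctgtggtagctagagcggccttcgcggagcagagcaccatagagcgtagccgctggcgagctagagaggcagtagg
Itgb1: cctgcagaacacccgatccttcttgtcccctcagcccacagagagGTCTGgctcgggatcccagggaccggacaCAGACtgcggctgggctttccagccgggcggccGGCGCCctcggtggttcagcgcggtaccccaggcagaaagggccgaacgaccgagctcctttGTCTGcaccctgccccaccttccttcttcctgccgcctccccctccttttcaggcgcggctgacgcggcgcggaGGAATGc

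Of the 35 members 27 had a promoter in the table, 1 per gene. The SMAD box stood in 13 of the 27 (48.1%) against 42.1% of 27025 promoters, the BMP-type element in 3 (11.1% against 9.5%), the AP-1 site in 2 (7.4% against 6.9%) and the TEAD site in 4 (14.8% against 12.6%). The CArG box stood in 2 (7.4% against 1.4%), those of Vcl and Fermt2, neither of which passed the test. These matches are a description of the letters in this window.

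Around the members, 49 of 54 listed other focal adhesion and integrin signalling genes were measured, of which 6 fell, 0 rose and 43 did not pass (6 were higher and 12 lower at an unadjusted p under 0.05 in limma). With the block 5 were lower and 2 higher. Here and for the ligand and actin lists, the shares over all probe sets are those given above. They were 0.573% lower and 0.616% higher, 6.10% and 6.42% unadjusted, and 1.64% and 1.68% with the block. A mean of at least 7 was reached by 40 of these 49 genes, 22 of 34 ligand genes and 21 of 21 actin genes. Of all probe sets at that level 1.21% were called lower. The fallers were Lpp and Tes, which are LIM proteins of the zyxin neighbourhood, Flna, filamin A, which cross-links actin and binds beta tails, Dock1, an exchange factor for Rac, Kank1, a talin partner, and Cd151, a tetraspanin that travels with laminin-binding integrins. The list's median difference was -0.008.

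Lpp stood at 11.96, 11.90 and 11.88 in control and at 11.49, 11.34 and 11.42 in BMP2 samples. Its groups lay far apart, and it fell by 0.50 on the log2 scale (SE 0.04, limma adjusted p = 0.021). Flna fell by 0.30 (SE 0.03, adjusted p = 0.035), Tes by 0.25 (SE 0.02, adjusted p = 0.027), Dock1 by 0.19 (SE 0.01, adjusted p = 0.010) and Kank1 by 0.18 (SE 0.02, adjusted p = 0.042). Cd151 fell by 0.06 (adjusted p = 0.038), a call that the block removed (0.070). Dock1 passed in 4, Lpp in 2, Tes in 1 and Flna, Kank1 and Cd151 in 0 of the 6 fits with 1 sample left out.

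The block called 2 of these genes higher. Lims2, the second PINCH gene, stood at 11.75, 11.74 and 11.88 in control and at 11.93, 11.99 and 12.16 in BMP2 samples, without overlap (0.24 ± 0.07, limma adjusted p = 0.26; 0.049 with the block). Sdc4, the proteoglycan syndecan-4 that assists fibronectin receptors, differed by 0.33 ± 0.14 (adjusted p = 0.46; 0.044 with the block).

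Of 37 listed integrin ligand genes 34 were measured, 3 fell, 0 rose and 31 did not pass (4 higher and 7 lower at an unadjusted p under 0.05 in limma). With the block 5 were lower and 2 higher. The fallers were Nid1, nidogen, which joins laminin to collagen (-0.33 ± 0.04, adjusted p = 0.035), Fn1, fibronectin (-0.12 ± 0.02, adjusted p = 0.041; 0.066 with the block), and Tnc, tenascin-C (-0.36 ± 0.05, adjusted p = 0.048, from 7.09 to 6.73, near the floor). Of the 3 fallers Tnc passed in 1 and Nid1 and Fn1 in 0 of 6 fits with 1 sample left out. With the block Thbs1, Vcam1 and Tgfb1 were lower and Cdh1 and Fga higher (adjusted p between 0.017 and 0.048). The list's median difference was -0.008.

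Of 22 listed genes of the actin cytoskeleton and SRF targets 21 were measured, 3 fell, 1 rose and 17 did not pass (2 higher and 12 lower at an unadjusted p under 0.05 in limma). With the block 4 were lower and 1 higher. Msn, moesin, which ties actin to the membrane, fell by 0.60 on the log2 scale (SE 0.05, limma adjusted p = 0.013). Cnn2, calponin 2, fell by 0.66 (SE 0.07, adjusted p = 0.033) and Tagln2, transgelin 2, by 0.20 (SE 0.02, adjusted p = 0.027). Mrtfb, a coactivator of SRF, rose by 0.27 (SE 0.03, adjusted p = 0.035). The list's median difference was -0.09. With 1 sample left out Msn and Cnn2 passed in 2 and Tagln2 and Mrtfb in 1 of 6 fits.

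Myl9, a myosin light chain of contractile cells, stood at 9.63, 9.19 and 9.13 in control and at 8.98, 8.53 and 8.31 in BMP2 samples. The groups did not overlap, and the difference of -0.71 ± 0.22 passed with the block (limma adjusted p = 0.023; 0.28 without).

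**Figure D4:**
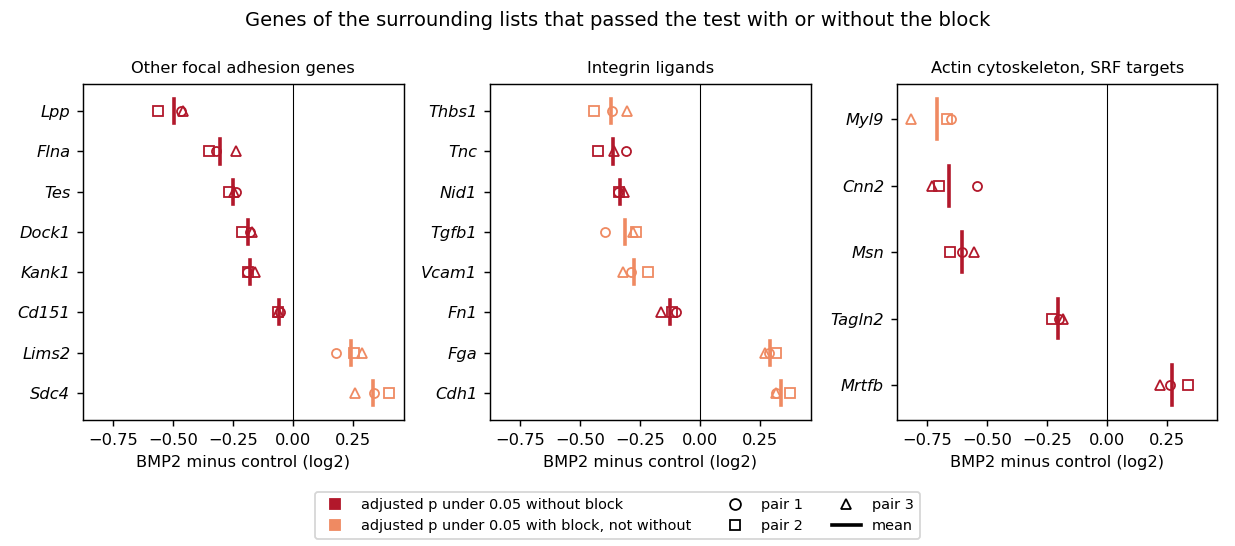
BMP2 minus control difference (log2, horizontal axis) in each of the 3 pairs (symbols) and on average (bars) for genes of 3 surrounding lists that passed with or without the block. Cnn2 (-0.66), Msn (-0.60) and Lpp (-0.50) are the lowest of those called without the block, and Mrtfb (0.27) is the 1 gene called higher without it.

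Markers of other cells were measured beside these changes. Of 13 stellate cell and fibroblast markers 2 (Acta2 and Col1a1) had a mean of at least 7. The mean of the whole list lay between 6.83 and 6.88 in control and between 6.79 and 6.83 in BMP2 samples, and Des, Lrat and Pdgfrb lay near the floor. Acta2, smooth muscle actin, stood at 8.62, 8.21 and 8.39 in control and at 7.84, 7.84 and 8.08 in BMP2 samples, without overlap (limma adjusted p = 0.20). Of 5 measured cholangiocyte markers 3 (Krt19, Sox9 and Cldn4) had a mean of at least 7, while Krt7 and Epcam lay near the floor. Krt19 was lower without overlap (-0.51, limma adjusted p = 0.073 without and 0.10 with the block). Sox9 was higher without overlap (0.46, limma adjusted p = 0.14 without and 0.039 with the block). The list mean lay between 8.66 and 8.88 in control and between 8.79 and 8.86 in BMP2 samples.

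Of 10 endothelial markers 1 (Cdh5) and of 11 Kupffer cell markers 1 (Cd68) had a mean of at least 7, and of 8 measured lymphocyte and 5 measured platelet markers none. The endothelial list mean lay between 6.74 and 6.81 in control and between 6.76 and 6.85 in BMP2 samples, and the Kupffer cell mean between 6.68 and 6.75 and between 6.68 and 6.70. Cd68 differed by -0.59, -0.24 and -0.20 in the pairs, with overlap (mean -0.34, limma adjusted p = 0.56 without and 0.21 with the block). Of the 11 Kupffer cell markers 4 differed below 0 and 7 above. Cdh5 differed by 0.10 with overlap (limma adjusted p = 0.83 without and 0.10 with the block). Emcn, an endothelial marker near the floor, differed by 0.09 and passed with the block (limma adjusted p = 0.048, against 0.88 without). The hepatocyte list mean lay between 11.01 and 11.16 in control and between 11.30 and 11.47 in BMP2 samples. In the hepatocyte list Hnf4a, a master transcription factor of hepatocytes, rose by 0.82 (limma adjusted p = 0.0097). It was the 1 marker called without the block in any of these lists. Ttr, transthyretin, was higher without overlap (0.68, adjusted p = 0.073; 0.017 with the block). Of the 6 hepatocyte markers with a mean of at least 7, 5 were separated upwards, against 13.9% of all probe sets at this level. The other of the 6, Alb, differed by -0.03 with overlap. The part of these differences in the changes of the adhesion genes was not tested.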

How the data were processed

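RNA of 6 hepatocyte cultures was labelled with biotin by the Affymetrix protocol and hybridised to 1 array each, so the number of arrays limits the precision. The deposited table holds log2 values, made by the authors with RMA per the submitters' processing notes; the RMA version and its settings are not given in the sources used here. Of 21115 probe sets 20405 had 1 gene symbol in the platform annotation. The other 710 had no single symbol there (none or more than 1) and were left without a symbol. All entered 1 fit in limma 3.58.1 (R 4.3.3; functions lmFit and eBayes, 3 control against 3 BMP2 samples, no covariate, no filter) with Benjamini-Hochberg adjustment. The members and lists were chosen with earlier results of these data known. All measured members are named, and of each other list the genes that passed with or without the block, otherwise the 4 smallest p-values.

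The labels call the samples biological replicates and the series' design names 3 mice. Deviations of control and BMP2 samples from their group means correlated at 0.48, 0.58 and 0.61 for numbers 1, 2 and 3. Between unlike numbers the correlations lay between -0.55 and 0.18, so the numbers were taken as pairs from the data. The main fit did not use these pairs, and the block did. The alternatives tried were the replicate number as a fixed or random block, a filter at a mean of 7, other variance priors, renewed quantile normalization, median centring, array weights, symbol-bearing probe sets alone, an adjusted p of 0.1 and leaving out samples. Leaving out replicate number 3 without a block was added after seeing the data. The fitting step was also run on simulated data with independent noise and no replicate effect. That run does not bear on the choice between the fits with and without the block. Figures were drawn with matplotlib 3.10.9.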

Additional observations from a re-analysis of the deposited data

How the results depend on the processing

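The limma counts depended on the fit. The block, filter and trend fits leave the difference of each gene unchanged by design, so only counts could move in them. Of all probe sets 121 were lower and 130 higher. The replicate block gave 347 and 355, the random block 342 and 358, the filter at a mean of 7 gave 216 and 227, the intensity trend 221 and 217, the trend with robust estimation 240 and 228, and array weights 202 and 201. Leaving out 1 sample gave 17 to 98 lower and 13 to 125 higher. Of the members 4 were lower. This was 8 with either block and at an adjusted p of 0.1, 7 with the trend and robust estimation, 2 after median centring, and 1 to 3 with 1 sample left out. The integrin subunit count of 1 was 3 with the replicate block, 4 with the random block and with either trend fit, 0 after quantile normalization or median centring, and 0 to 1 with 1 sample left out. The adaptor count of 3 was 5 with the replicate block, 4 with the random block, 2 with the intensity trend or median centring, 3 with the trend and robust estimation, and 1 to 2 with 1 sample left out. With the replicate block and 1 replicate number left out, 0 probe sets, 0 members, 0 integrin subunits and 0 adaptors passed, in fits of few residual degrees of freedom. Without number 3 and without a block, an alternative chosen after seeing the data, 49 probe sets were lower, 65 higher, and 0 members, 0 integrin subunits and 0 adaptors passed. The filter at 7 moved the integrin subunit median from -0.0003 to -0.11 and the adaptor median from -0.11 to -0.16, since it removes dim genes. The adaptor median was -0.042 with the block without number 2, and -0.143 to -0.062 with 1 sample left out. Among 64 named genes and 19 settings, 0 called genes changed sign. Much of this was fixed in advance. Block, filter and trend fits keep each difference, and groups without overlap keep their sign when 1 sample is left out. Genes that passed in neither fit had another sign than in the main fit 34 times, in 10 genes, 2 of which (Itga5 and Vcl) differed by over 0.03. The count takes in Itgb2, whose main difference was 0, so that any other value counts as a change. Median centring moved the median of all probe sets by 0.002. Levels under 7 limit what the 15 dim members can show.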

Other observations

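The log2 difference between related genes was taken within each sample for 6 pairs that were chosen after their values were seen, because their changes differed, so it is given as a description with no test. The difference of Actn1 and Actn4 changed with BMP2 by -0.39 (-0.35, -0.38 and -0.42 in the 3 pairs of replicates), and that of Itga3 and Itga6 by -0.50 (-0.59, -0.52 and -0.40). Ilk against Lims1 changed by -0.32, Itgb1 against Itgb5 by -0.28, Tln1 against Fermt2 by -0.24 and Zyx against Vcl by -0.16.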
